A study of Mus musculus with 9 samples.

Results

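The miR-25/92 seed family was read by 4 of the 566 mouse miRNA probes of a NanoString nCounter panel: mmu-miR-25, mmu-miR-92a, mmu-miR-363 and mmu-miR-32. The probes were chosen by name, without use of their counts. The tissue was whole mouse lung of embryonic day E18.5 on a C57BL/6 background, from 4 embryos of genotype Bim3'UTRmut/mut, called mutant here, and 5 wild type embryos. nCounter counts single reporter-labelled molecules without amplification, and 100 ng of total RNA was used per sample. The labels give the mutant allele only as homozygous and located in the 3' untranslated region (3'UTR) of Bim, without the changed bases, and they give no litter, sex or dissection day.

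A miRNA guides Argonaute to mRNAs mainly through its seed, bases 2 to 8 of the mature strand, which pairs with complementary sites in 3'UTRs. Members of the miR-25/92 family are encoded in the related clusters miR-17-92, miR-106b-25 and miR-106a-363, which also carry miRNAs of other seed families, and at a separate miR-32 locus. The clusters are known for promoting cell survival and growth, and Bim (Bcl2l11), a pro-apoptotic BH3-only protein of the BCL-2 family, is one of their known targets. The panel counts miRNAs, so Bim mRNA and protein were not analysed here, and the action of the family on Bim was not tested.

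The mature sequences show what the 4 probes have in common and how closely their targets resemble each other, as hybridization probes read sequence. Capitals mark the seed.
miR-25: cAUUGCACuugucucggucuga
miR-92a: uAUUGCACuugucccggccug
miR-363: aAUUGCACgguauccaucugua
miR-32: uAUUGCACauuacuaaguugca
miR-92b: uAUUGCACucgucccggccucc
miR-367: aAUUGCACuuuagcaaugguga
These RefSeq sequences (GRCm38.p6) share the seed AUUGCAC, whose perfect target match is GUGCAAU. All 6 mature mouse miRNAs of the RefSeq table with this seed have a panel probe. The last 2 in the list, miR-92b and miR-367, are not among the 4 and are used for comparison. Outside the seed, miR-92a was identical to miR-25 at 11 of 14 aligned positions, miR-32 at 6 of 15 and miR-363 at 2 of 15. The panel names carry no arm for these miRNAs, so each was taken as the arm that holds the family seed.

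The loci lie on 4 chromosomes. Mir25 is at chr5:138165321-138165404 on the minus strand, within the span of the gene Mcm7, with Mir93 and Mir106b at gaps of 118 and 332 bp. Mature miR-92a has 2 sources with 1 sequence: Mir92-1 at chr14:115044427-115044506 (plus strand, within Mir17hg, the host transcript of miR-17-92) and Mir92-2 at chrX:52741838-52741928 (minus strand). A single probe therefore cannot tell these loci apart. Mir363 is at chrX:52741693-52741767, 70 bp from Mir92-2. Mir32 is at chr4:56895229-56895298 on the minus strand, within the span of Tmem245, and has no other miRNA hairpin within 10 kb on its strand.

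Some features of the samples touch every result. Muscle miRNAs were high in mutant 8 and wild type 3: the 7 heart and skeletal muscle probes summed to 30047 counts in mutant 8 and 22869 in wild type 3, against 455 to 541 in the other 3 mutants and 378 to 636 in the other 4 wild types. All 7 exceeded the lane threshold in both samples, against 0 to 4 of 7 elsewhere. The rise was uneven across these probes. miR-206 had 187 counts in mutant 8 and 71 in wild type 3, against 62 to 116 in the other samples. miR-133b had 110 in mutant 8 and 75 in wild type 3, against 46 to 93 in the others. Every remaining probe of the list had at least 1202 counts in both samples and at most 162 in any other. The 5 epithelial probes of the miR-200 family were low in the same samples, with 1033 counts in mutant 8 and 548 in wild type 3, against 6573 to 8144 in the other mutants and 6490 to 8695 in the other wild types. The 2 endothelial probes summed to 18039 in mutant 8 and 19638 in wild type 3, against 27595 to 31887 in the other mutants and 26174 to 35493 in the other wild types. The 3 erythroid probes summed to 1339 to 2352 in mutants and 1354 to 3002 in wild types, and the 5 white blood cell probes to 903 to 1749 in mutants and 630 to 1473 in wild types. The probes within these lists did not move together. miR-142-3p had 1082 counts in mutant 8 and 115 in wild type 3, against 98 to 251 in the others. miR-223 had 186 in mutant 8 and 187 in wild type 3, against 327 to 597 in the others. miR-486 had 494 in mutant 8 and 541 in wild type 3, against 109 to 225 in the others. miR-155 had 1 count in every sample. The lung label is thus poorly matched by the epithelial markers in mutant 8 and wild type 3, and the part of these markers in the family's values was not tested. The label of wild type 5 also disagrees with the deposited lane table, whose comments for its 2 lanes read as mutant. The sample labels were followed. The total over the 566 mouse probes was 206964 to 289227 counts.

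Of the 4 members, miR-25 stood far above background in these lungs and the other 3 stayed near it. The lane threshold was set at 2 SD above the mean of the 8 negative control probes counted in that lane. miR-25 exceeded it in 9 of 9 samples. miR-92a did so in 0 of 9, and miR-363 and miR-32 in 1 of 9 each. Of all 566 mouse probes, 33.4% exceeded it in at least 4 samples, the filter used for the main test, and 298 did so in none. In counts, miR-25 supplied 95.4% to 98.3% of the family's total in each sample. Probes differ in capture efficiency, so this share is one of counts and not of molecules. In whole-tissue RNA, fewer cells of a type and less RNA per cell cannot be told apart.

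mmu-miR-25, the member made from the miR-106b-25 cluster, had 4746, 5301, 3776 and 5128 counts in mutants 6 to 9, against 5024, 5220, 2719, 5016 and 5335 in wild types 1 to 5. Mutant 8 and wild type 3 were the lowest of their groups, and the groups overlapped. The count was 67.4 to 179 times the mean negative control of its lane. It made up 1.50% to 2.18% of all mouse probe counts in mutants and 1.31% to 2.27% in wild types. By count it ranked between position 12, in wild type 4, and position 25, in wild type 3, among the 566 mouse probes.

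mmu-miR-92a, which both the miR-17-92 and the miR-106a-363 clusters encode, had 59, 27, 40 and 22 counts in mutants 6 to 9, against 34, 21, 27, 26 and 46 in wild types 1 to 5. Every one of these counts lay below its lane threshold, and 7 of 9 lay below the mean negative control. In the same lanes miR-25, identical to miR-92a at 18 of 21 aligned positions, gave at least 2719 counts. Other probes of the miR-92a clusters differed widely. The miR-17 and miR-106a probe gave 2866 to 4876 counts and the miR-20a and miR-20b probe 3201 to 5789. miR-19a gave 230 to 862, miR-19b 173 to 492, miR-18a 51 to 123 and miR-18b 18 to 48. Little miR-92a and a weakly reading probe cannot be told apart here. The highest miR-92a count, 59 in mutant 6, came from a lane whose mean negative control was 66.8.

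mmu-miR-363, the last hairpin of the X-linked cluster, had 37, 15, 71 and 25 counts in mutants 6 to 9, against 26, 23, 17, 25 and 37 in wild types 1 to 5. Only mutant 8 stood out, with 71 counts against a lane threshold of 65.1. In that lane 4 of the 33 viral probes also exceeded the threshold, the highest at 72 counts, and in the lane of wild type 3 this held for 5 of 33. In the other 7 lanes 0 or 1 viral probe did so.

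mmu-miR-32, the member outside the clusters, had counts of 52 or more in mutants 6 to 9 and of 37 to 139 in wild types 1 to 5. Set against the mean negative control of its lane, miR-32 was 1.59, 1.55, 1.99 and 1.44 times that mean in mutants 6 to 9, against 1.53, 1.40, 1.04, 1.17 and 1.76 times in wild types 1 to 5. Mutant 8 was highest and wild type 3 lowest, and the groups overlapped. miR-32 exceeded the threshold only in mutant 8, at 69 counts against 65.1. The 3 largest counts came from the 3 lanes with the highest mean negative control, those of wild type 5 (79.1), mutant 6 (66.8) and wild type 2 (64.3), where miR-32 had at least 90 counts. In the other 6 lanes that mean was 28.1 to 39.5 and miR-32 had 37 to 69 counts.

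**Figure D1:**
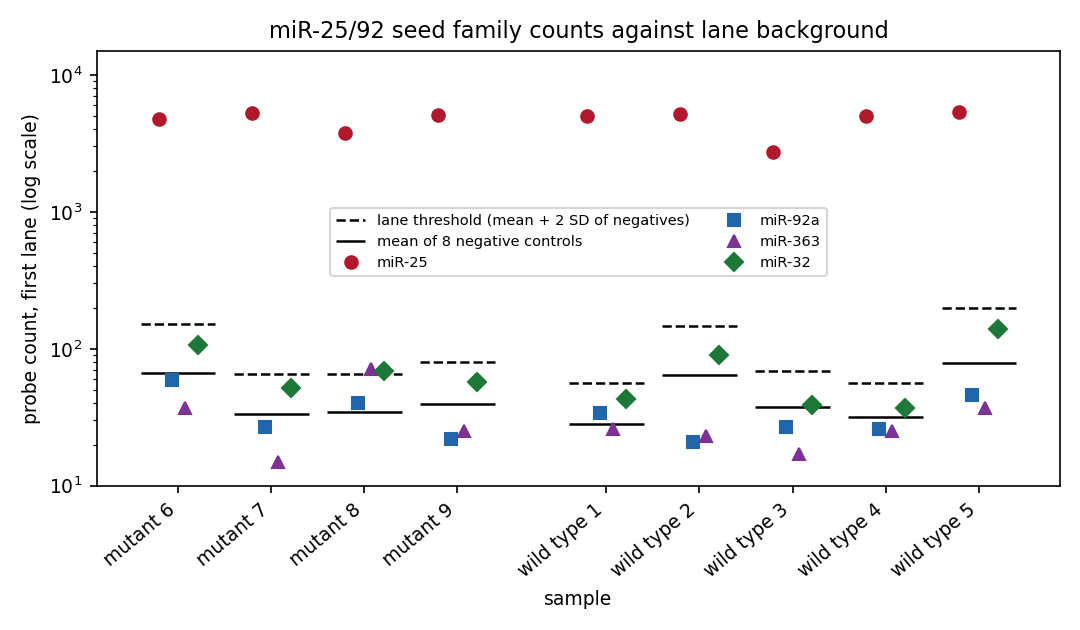
Probe counts on a log axis of the 4 family members in each sample, mutants left and wild types right, with the mean negative control (solid line) and the lane threshold (dashed line) of each lane. miR-25 lies at 2719 to 5335 counts in all samples, while the other 3 members lie at 15 to 139 and cross the threshold only in mutant 8.

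To place the members on 1 scale, the count plus 1 was divided by the mean negative control plus 1 of the lane and taken as log2. miR-25 had a log2 ratio of 6.70 ± 0.55 (SD, n = 9), or 104-fold. miR-32 had 0.55 ± 0.28 and was above the mean negative control in 9 of 9 samples. miR-92a and miR-363 had -0.43 ± 0.56 and -0.62 ± 0.74. A two-sided exact sign-flip permutation test over the 9 samples compared each probe with the mean negative control, adjusted by Benjamini-Hochberg over 566 probes. miR-25 and miR-32 lay above that mean (exact permutation, adjusted p = 0.0052 each). Their raw permutation p of 0.0039 was the smallest that 9 samples allow. Against the single negative controls of each lane, miR-25 was higher in 72 of 72 comparisons and miR-32 in 54 of 72. In the same exact permutation test miR-92a and miR-363 lay below the mean negative control (adjusted p = 0.049 and 0.045). Both calls ended against the median negative control (exact permutation, adjusted p = 0.21 and 0.12), and leaving out 1 sample ended the call in 7 of 9 cases for miR-92a and 8 of 9 for miR-363.

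Such calls were common on the panel. Of the 566 mouse probes 55.3% were called above and 32.3% below the mean negative control. Of the 33 viral probes, which have no stated target in an uninfected mouse, 19 (57.6%) lay above and 12 (36.4%) below at the p that sufficed for a call among mouse probes. The 8 negative controls themselves had mean ratios on both sides of 0, from -1.05 to 0.75. Against the viral probes, miR-32 lay within their range, with 8 of 33 at or above it. miR-92a and miR-363 each had 21 of 33 at or above them. miR-25 lay above all 33, whose highest mean log2 ratio was 0.88. The 2 other probes with this seed also stayed within that range: miR-367, best known from embryonic stem cells, had 0.85 ± 0.30 with 1 viral probe at or above it, and miR-92b had -0.04 ± 0.71. miR-367 exceeded the lane threshold in 3 of 9 samples and miR-92b in 1 of 9.

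**Figure D2:**
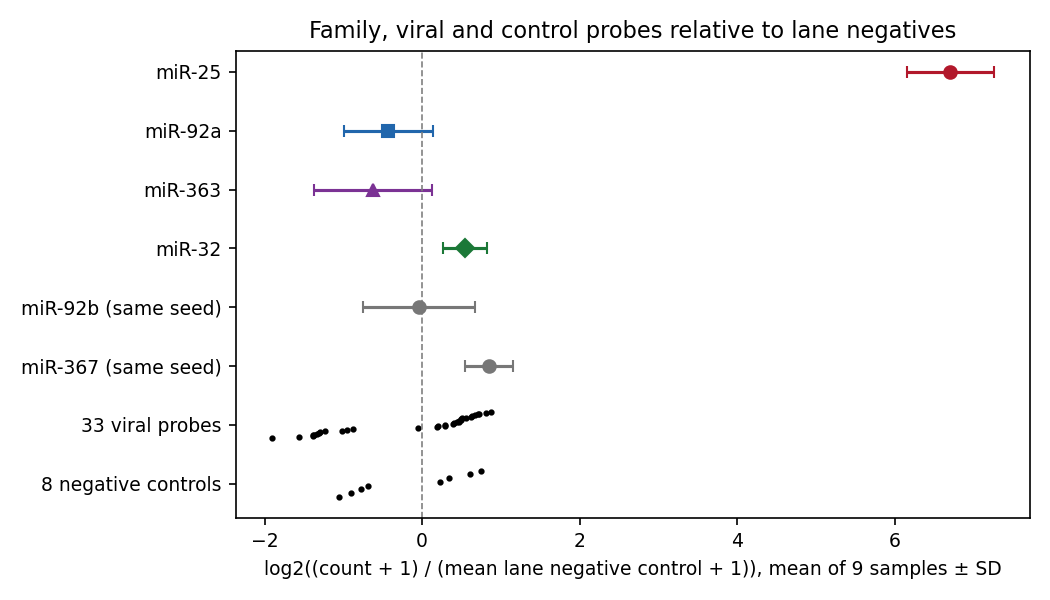
Mean log2 ratio of probe count to the mean negative control of the lane over 9 samples (x axis, bars are SD) for the 4 members, the other 2 probes with the same seed, and, as black points with no bars, 33 viral probes and 8 negative controls. miR-25 stands at 6.70, and all other family probes lie within -0.62 to 0.85, where the viral probes reach 0.88.

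Mutant 6, wild type 1 and wild type 5 were also read in a second lane of the same cartridge, which shows how each probe moved between lanes of 1 sample. Whether the lanes share a ligation reaction is not given in the sources used here. In each pair the mean negative control differed between lanes, by 2.27-fold in mutant 6, 2.39-fold in wild type 1 and 1.76-fold in wild type 5. miR-32 moved with it. It read 1.89 times as many counts in the higher-background lane of mutant 6 as in the other, which gave 56. In wild type 1 it read 107 and 43 counts in the higher- and lower-background lane, and in wild type 5 it read 139 and 61, ratios of 2.49 and 2.28.

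The negative controls NEG_B and NEG_F moved in the same direction, with ratios of 2.16 to 6.26 and 2.30 to 2.80. miR-25 did not follow the background: the ratio of the higher- to the lower-background lane was 1.24 in mutant 6, 1.07 in wild type 1 and 0.85 in wild type 5. miR-92a had ratios of 2.11, 1.35 and 1.28 in these samples, and miR-363 had 1.23, 0.88 and 1.32. None of miR-92a, miR-363 and miR-32 exceeded the threshold in any of these 6 lanes. Lanes of 1 sample thus gave miR-25 counts up to 1.24-fold apart. For miR-367 the ratio was 3.00 or more in all 3 pairs.

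**Figure D3:**
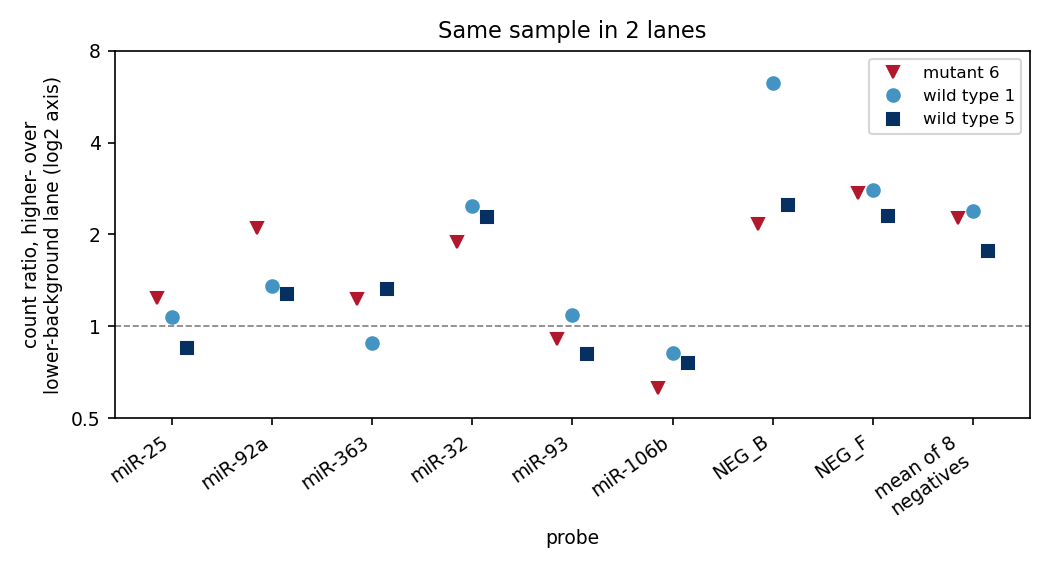
Ratio of counts between the higher- and the lower-background lane of the same sample (log2 axis) for the family members, the cluster mates miR-93 and miR-106b, 2 negative controls and the mean of 8 negatives, 1 point per sample. miR-32 lies at 1.89 to 2.49, near the mean of the 8 negatives at 1.76 to 2.39, and miR-25 at 0.85 to 1.24, near 1.

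The study's comparison is mutant against wild type. No difference in normalized miR-25 level passed the test. Its log2 CPM (CPM, the count relative to the TMM-scaled total of kept probes) was 14.25 ± 0.22 in mutants (SD, n = 4) and 14.27 ± 0.21 in wild types (SD, n = 5). Mutants ranged from 13.96 in mutant 8 to 14.48 in mutant 9, and wild types from 13.99 in wild type 3 to 14.58 in wild type 4, so the ranges overlapped nearly in full. The log2 fold change was -0.02 ± 0.16 (SE), with a 95% confidence interval of -0.37 to 0.33, that is 0.78-fold to 1.26-fold (edgeR quasi-likelihood test, Benjamini-Hochberg adjusted p = 0.997). Without mutant 8 and wild type 3 it was 0.00 ± 0.13, and with wild type 5 counted as mutant, as the lane comments read, it was -0.05. No probe was called in this fit (0 of 189 kept probes, 0%, at an adjusted p under 0.05), where 5 had an unadjusted p under 0.05 in edgeR and 9 in DESeq2.

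The sign of the miR-25 difference changed with the scaling. It was 0.14 ± 0.22 with housekeeping mRNAs and 0.04 ± 0.16 with total counts, neither called. Within the 6 lower-background lanes, a split made after the data were seen, miR-25 had 14.27 ± 0.27 in 3 mutants and 14.27 ± 0.29 in 3 wild types. In the other lanes it was 14.18 in 1 mutant and 14.26 in 2 wild types. miR-25 varied less across the 9 samples than most kept probes: its SD of log2 CPM was 0.20, against a median SD of 0.32, and 160 of 189 probes had a larger one. Kept probes included some near the lane threshold, such as miR-18a at 51 to 123 counts, so levels were not matched in this comparison.

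The other 3 members were not kept by the filter, so their genotype values come from a fit on all 566 probes, at counts near the negative controls. The log2 fold change was 0.26 ± 0.27 for miR-92a, 0.58 ± 0.38 for miR-363 and 0.14 ± 0.26 for miR-32 (SE, 4 mutants against 5 wild types, edgeR adjusted p = 0.999 each). In this fit 0 of 566 probes (0%) were called, with 5 at an unadjusted p under 0.05, against 1 in DESeq2. All 3 values moved when 1 sample was left out. miR-92a ranged between 0.024, without wild type 2, and 0.39, without mutant 9. miR-32 ranged between 0.028, without mutant 6, and 0.35, without wild type 5. The miR-363 value rested on mutant 8: without that sample it was -0.01, and without mutant 8 and wild type 3 it was -0.05 ± 0.27. For miR-92a and miR-32 it was then 0.21 ± 0.31 and 0.04 ± 0.33. With wild type 5 counted as mutant, the miR-32 value was 0.47, not called. The 95% intervals ran from 0.79-fold to 1.80-fold for miR-92a, 0.83-fold to 2.66-fold for miR-363 and 0.74-fold to 1.64-fold for miR-32, and no difference between genotypes was detected. With 4 and 5 embryos of unstated litter, the p-values measure only the spread between these samples.

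miR-25 is processed from the same primary transcript as miR-93 and miR-106b, which carry another seed.
miR-93: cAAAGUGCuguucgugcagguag
miR-106b: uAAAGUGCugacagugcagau
Both share the seed AAAGUGC with the miR-17 family. Their probes exceeded the lane threshold in 9 of 9 samples. miR-93 had 324, 354, 381 and 381 counts in mutants 6 to 9, against 300, 258, 267, 288 and 324 in wild types 1 to 5. The counts of the groups met at 324. miR-106b had 224, 314, 367 and 289 counts in mutants 6 to 9, against 297, 216, 119, 207 and 264 in wild types 1 to 5, with overlap.

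After scaling, the log2 fold change was 0.25 ± 0.17 for miR-93 and 0.42 ± 0.20 for miR-106b (SE, edgeR adjusted p = 0.997 each), beside -0.02 for miR-25. Without mutant 8 and wild type 3 these were 0.31 ± 0.15, 0.21 ± 0.17 and 0.00 ± 0.13. In mutant 8 and wild type 3 the 3 probes did not move together. miR-25 was at its lowest in these samples, at 13.96 log2 CPM in mutant 8 and 13.99 in wild type 3. miR-93 was instead near its highest, at 10.66 in mutant 8 and 10.65 in wild type 3. miR-106b was at its highest in mutant 8, at 10.61, and at its lowest in wild type 3, at 9.49.

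**Figure D4:**
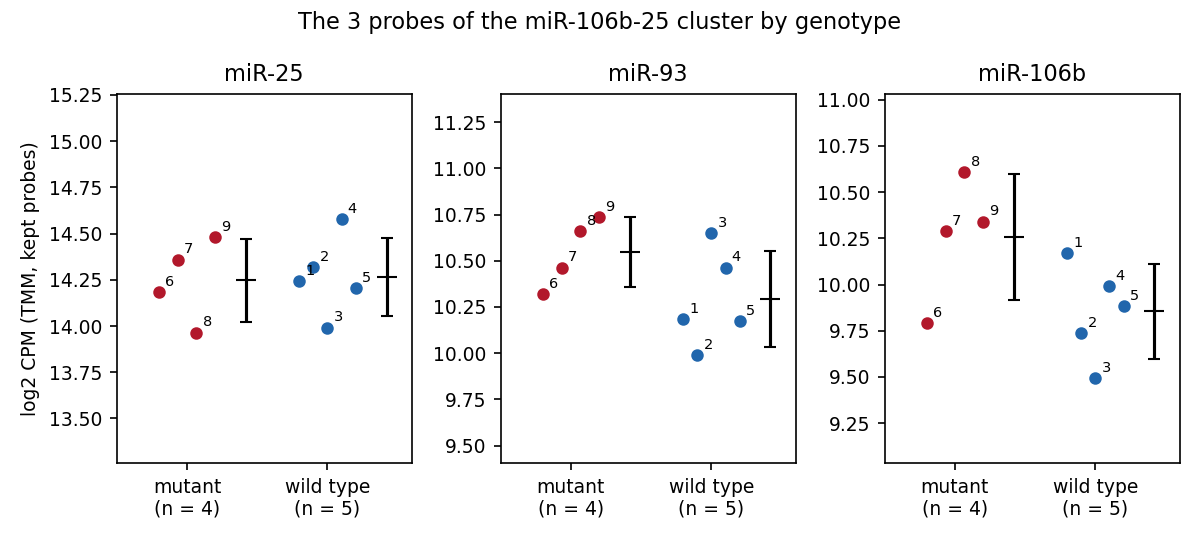
Log2 CPM of miR-25, miR-93 and miR-106b in each sample, mutants left and wild types right in each panel, with sample numbers beside the points and mean ± SD in black; each y axis spans the same 2 log2 units. miR-25 averages 14.25 in mutants and 14.27 in wild types, and the groups overlap in all 3 panels.

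Whether miR-25 differs from its cluster mates was tested on the log2 ratio of miR-25 to each other kept probe, a test added after the data were seen. The ratio to miR-93 was 3.70 ± 0.27 in mutants and 3.97 ± 0.37 in wild types (SD, n = 4 and 5), and a two-sided exact permutation test gave p = 0.27. The ratio to miR-106b was 3.99 ± 0.44 in mutants and 4.41 ± 0.22 in wild types (exact permutation p = 0.071). The ratio to miR-19a of miR-17-92 was 2.89 ± 0.38 in mutants and 3.45 ± 0.09 in wild types (exact permutation p = 0.016), where the 126 splits allow no p below 0.0079. miR-19a had the smallest p among the cluster probes. In the same exact permutation test p was 0.024 for miR-19b, 0.26 for miR-18a, 0.31 for the miR-17 and miR-106a probe and 0.56 for the miR-20a and miR-20b probe, with differences of -0.56, -0.36, -0.27 and -0.16. The edgeR log2 fold change was 0.58 ± 0.23 for miR-19a and 0.55 ± 0.19 for miR-19b, beside -0.02 ± 0.16 for miR-25 (SE, adjusted p = 0.997 each). The differences in log2 ratio, mutant minus wild type, were -0.27, -0.42 and -0.57 for miR-93, miR-106b and miR-19a, and -0.30, -0.19 and -0.45 without mutant 8 and wild type 3. After Benjamini-Hochberg adjustment over all 188 ratios each of the 7 had a p of 0.989, and none of the 188 was called (0%), with 4 at an unadjusted p under 0.05 in the exact permutation test. With a floor of 0.0079, no ratio could be called over 188 unless many ratios reached that floor together. The lack of calls therefore cannot decide whether miR-25 differs from its cluster mates.

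The probes of the 3 clusters were also counted by cluster, where miR-17-92 and miR-106a-363 share probes that read both. miR-106b-25 had 3 of 3 probes kept, 2 with a positive and 1 with a negative value and 0 called, at a median log2 fold change of 0.25. miR-17-92 had 5 of 6 kept, all 5 positive and 0 called, at a median of 0.41, or 0.24 without mutant 8 and wild type 3. miR-106a-363 had 3 of 6 kept, all of them probes shared with miR-17-92, at a median of 0.26. Over all 189 kept probes, 76 (40.2%) had a positive value and the median was -0.03. The cluster probes not kept were the family members miR-92a and miR-363, and miR-18b.

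**Figure D5:**
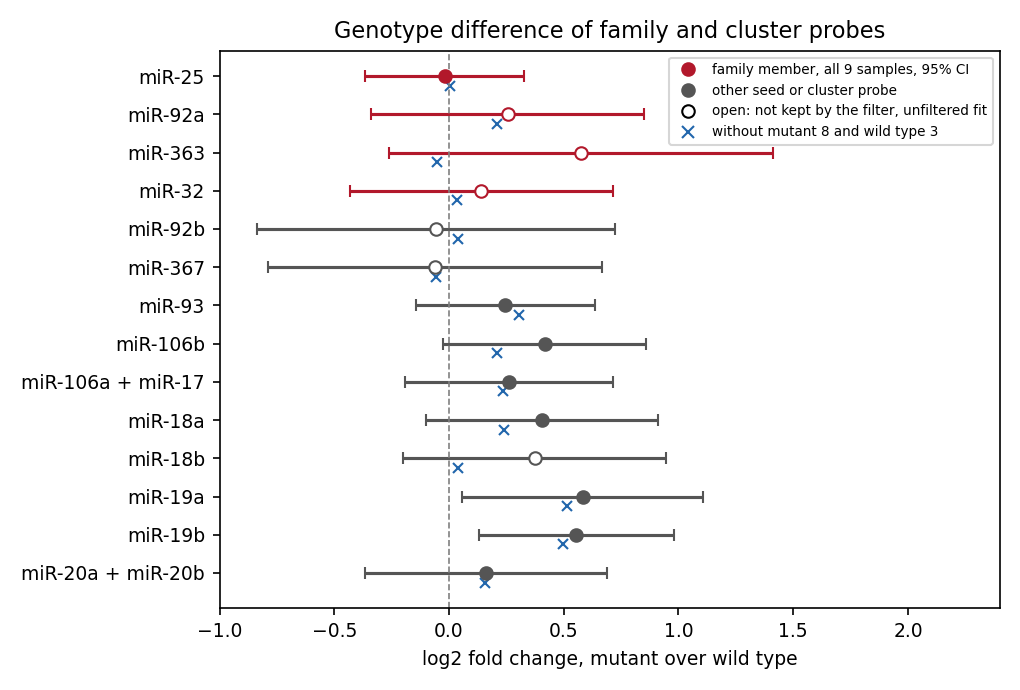
Log2 fold change of mutant over wild type with 95% confidence intervals for the 4 members (red), the other seed probes and the cluster probes (grey), filled where the probe was kept and open where the value comes from the unfiltered fit; crosses are values without mutant 8 and wild type 3. The interval of miR-25 spans -0.37 to 0.33, and the value of miR-363 is -0.05 without these samples.

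The kept probes whose level followed miR-25 most closely were named by the smallest SD over the 9 samples of the difference in log2 CPM to miR-25. They were let-7b (SD 0.09), miR-15b (0.16), miR-1944 (0.16), miR-410 (0.17) and 1 probe that reads miR-466a-3p together with miR-466b-3-3p (0.18), out of 188. The cluster mates were less alike: miR-93 ranked 79 with an SD of 0.34 and miR-106b ranked 93 with 0.38. None of the first 5 stayed among the first 5 without mutant 8 and wild type 3, where let-7b ranked 7, miR-15b 8, miR-1944 31, miR-410 13 and the combined probe 16. The ranks of miR-93 and miR-106b were then 49 and 71, with SDs of 0.19 and 0.22. All probes share lanes and scaling, so a small SD describes similar levels in these samples only.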

How the data were processed

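Whole-lung RNA of 4 mutant and 5 wild type embryos was read on a NanoString nCounter mouse miRNA panel. The deposited table holds raw counts for 626 probes without normalization, as read from the values: all 5634 equalled the first lane of each sample in the deposited lane table, which also holds 3 repeat lanes and whose columns mix counts with other lane measures. Columns of other samples unused numbered 0. The scanner's image processing is not given in the sources used here.

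Mouse probes above the lane mean of 8 negative controls plus 2 SD in at least 4 samples were kept (189 of 566). Genotypes were compared with edgeR 4.0.16 (TMM, quasi-likelihood, Benjamini-Hochberg, R 4.3.3), for probes not kept in a fit on all 566. DESeq2 1.42.0, limma 3.58.1, other scalings, background treatments, lanes and left-out samples were alternatives. The edgeR fit on kept probes was tested on simulated data of 9 samples. It called 22.0% of 1.5-fold, 65.25% of 2-fold and 96.5% of 4-fold changes, and 1.085% of unchanged probes. Most simulated 1.5-fold changes were thus missed. Levels against negatives used sign-flip permutation over 9 samples of log2((count + 1)/(negative mean + 1)), and ratios to miR-25 used the 126 splits of samples (Python 3.11.15, scipy 1.17.1). Sequences and loci came from RefSeq (GRCm38.p6).

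Earlier results of these data were known when the members, marker lists and rules were set. The members themselves were chosen by name, without use of their counts. Named probes were the 4 members, probes with the same seed, probes of the 3 clusters, the 5 kept probes most like miR-25, and the tissue markers. The test of ratios to miR-25 and the split by lane background were added after the data were seen. Samples were grouped by their titles.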

Additional observations from a re-analysis of the deposited data

Results flagged for a closer look

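2 of 52 groups of values tested held a sample far from its group, where chance marks about 1 in 20. Wild type 3 had 2719 counts of miR-25, below the other 4 wild types at 5016 to 5335, a gap of 0.878 of the group's whole range. Wild type 3 also had 230 counts of miR-19a, a miR-17-92 member of another seed family, a gap of 0.817 of the range. After scaling, where wild type 3 had the lowest total of all samples, neither value was marked: the gap was 0.368 of the range of log2 CPM for miR-25 and 0.452 for miR-19a. The summed muscle markers were high and the summed epithelial markers low in the same sample, and their part in these counts was not tested.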

How the results depend on the processing

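miR-25 lay above the negative controls, and no probe was called between genotypes, in every alternative run. The sign of the miR-25 log2 fold change, -0.02, turned with DESeq2 (0.014), its size factors (0.014), total counts (0.039), the 100 most abundant probes (0.036), positive controls (0.078), housekeeping mRNAs (0.14), no filter (0.053), a filter on all 9 samples (0.012) and without mutant 8 and wild type 3 (0.0038). Leaving out each sample in turn gave -0.10 to 0.068. The cause was not tested. Subtracting the mean negative control left miR-92a above 0 in only 2 of 9 samples. The miR-92a log2 fold change was then -0.052 ± 1.99 (SE, not called), which is no estimate of size. For miR-363 it was -0.054 without mutant 8 and wild type 3, -0.10 without wild type 5 as well, -0.012 to 0.82 over samples left out, and 5.94 ± 2.58 (SE, not called) after subtracting the mean negative control, which leaves 1 of 9 samples (mutant 8) above 0, so that this value is no estimate of size. At 3 SD above the negative mean, miR-363 and miR-32 exceeded the threshold in 0 samples.

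The calls of miR-92a and miR-363 below the mean negative control were lost in some settings, while the log2 ratios stayed negative. Both calls ended against the median negative control (-0.27 and -0.46). The miR-92a call also ended without mutant 8 and wild type 3 (-0.52), and the miR-363 call with the repeat lanes (-0.64). Both calls held against the viral probe mean (-0.53 and -0.72). Leaving out single samples gave -0.52 to -0.29 and -0.83 to -0.52, with 7 and 8 of 9 calls lost, where fewer samples also raise the smallest p. miR-32 fell below the highest negative control of the lane (-0.29). No paired analysis was possible because the labels give no litter or other link between mutant and wild type embryos. Counts near the negative controls limit what can be said of miR-92a, miR-363 and miR-32.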
